A study of Mus musculus with 11 samples.

Results

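The genes described here encode fibronectin and 7 matricellular proteins, measured by RNA sequencing in WFU3, a cell line of mouse prostate epithelial stem cells. They were taken by symbol (Fn1, Thbs1, Thbs2, Tnc, Sparc, Postn, Tgfbi and Spp1) and make up 8 of the 48299 genes of the table. All 8 were found, and 7 of them were among the 14346 genes that passed the filter on low counts and were tested. The exception was Thbs2.

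Fibronectin is a large secreted glycoprotein that cells pull into fibrils through integrins, and these fibrils serve as a scaffold on which other matrix proteins are laid down. Matricellular proteins are secreted into the same matrix but contribute little to its structure. They bind integrins, growth factors and proteases and so tune adhesion, migration and signalling, and they are typically prominent in wounds, in stroma and around tumours. TAK1, the kinase encoded by Map3k7, relays signals from cytokine and TGF-beta receptors to NF-kB, JNK and p38, and CHD1 is a chromatin-remodelling ATPase.

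The 11 libraries fell into 4 groups, and every line carried a pair of hairpins, targeting or control. The shDouble group held 4 libraries, in which Chd1 hairpin construct 96526 or 96528 (each in a puromycin vector) had been added to Map3k7 hairpin clone 1 (replicates 1 and 2, passage 49) or clone 7 (replicates 3 and 4, passage 48). The shMap3k7 group held the same clone 1 (replicate 1, passage 49) and clone 7 (replicate 2, passage 47) with a control puromycin hairpin. The shChd1 group held constructs 96526 (replicate 1, passage 52) and 96528 (replicate 2, passage 50), both in control clone 4. The shControl group held an unnumbered line with control hairpins marked puro and neo (replicate 1, passage 30) and control clones 4 and 5 with a control puromycin hairpin (replicates 2 and 3, passage 52). The labels give controls 4 and 5 a number but not the word clone, which is used for them here for short. The Map3k7 hairpins and the control hairpins of clones 4 and 5 came from a modified LentLox3.7 lentivirus with EGFP. RNA was taken from all of them a day after plating in complete growth medium. The Map3k7 hairpin was thus sampled in 2 clones and shChd1 in 1 control clone, and a clone's own level and the hairpin's effect cannot be told apart across them. Each library was of a different combination of line and hairpins, so p-values measure the spread between such combinations within a group. No combination was sampled more than once, so the spread between repeat cultures of a combination was not measured.

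Levels are counts-per-million (CPM), that is, counts scaled for the depth of the library, and a gene is said to have risen or fallen where edgeR's quasi-likelihood test gave an adjusted p under 0.05. Total counts ran from 14132371 to 23163709 per library, so that 3 counts in a library stood for 0.133 to 0.217 CPM. Map3k7 measured 39.3 to 43.0 CPM in the 6 libraries with a Map3k7 hairpin and 124 to 140 CPM in the 5 without. The difference in Chd1 was smaller: in the libraries with a Chd1 hairpin it stood at 73.5% to 89.7% of the level in the library of the same clone without one. Chd1 was not called in shDouble (162 to 198 CPM) against shControl (195 to 212 CPM), with a log2 fold change of -0.13 ± 0.09 (edgeR adjusted p = 0.291). Nor was it called in shDouble against shMap3k7 (-0.30 ± 0.10). In shChd1 against shControl it fell by 0.46 (SE 0.10, edgeR adjusted p = 0.047). The 7 epithelial markers (keratins, junction genes and the basal-cell factor Trp63) had a summed level of 9904 to 10483 CPM in shDouble, 10135 to 10311 CPM in shMap3k7, 2039 to 2291 CPM in shChd1 and 3832 to 9661 CPM in shControl. In shDouble against shControl 4 of them rose and 2 fell, Trp63 with a log2 fold change of -2.90 (edgeR adjusted p = 0.00279) and Krt5 with -5.40 (0.0476). With the line as a random replicate block 4 rose and 1 fell. The Krt5 value rests on the unnumbered shControl line. The other shControl libraries had 0.0519 and 0.110 CPM of Krt5, below the 0.156 to 0.780 CPM of shDouble. The sum of 8 fibroblast markers was 4.34 to 6.06 CPM in shDouble, 5.92 to 9.71 CPM in shMap3k7, 125 to 132 CPM in shChd1 and 23.4 to 87.0 CPM in shControl. Of the defining fibroblast genes, Lum was at 0 in all 11 libraries and Dcn and Thy1 at 0 in the 6 Map3k7-hairpin libraries. In the 5 libraries without that hairpin they were also scarce. Thy1 reached at most 0.0624 CPM there, and Dcn had a median of 0.104 CPM and a highest value of 8.24 CPM, in shControl. Summed smooth muscle markers reached at most 3.50 CPM and immune markers at most 4.11 CPM. The unnumbered shControl line stood apart, with Krt5 at 48.9 CPM and 18.2 CPM of the endothelial gene Cdh5, against 0 to 0.110 CPM of Cdh5 in the other 10 libraries. The part of these marker levels in the results below was not tested. In bulk RNA fewer cells of a type and less RNA per cell cannot be told apart.

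Promoter windows of 300 bases, from 250 before to 50 after a RefSeq transcription start on GRCm38.p6, were found for 6 of the 8 genes. Those of Spp1, Tgfbi and Sparc are shown because these genes fell in shDouble, and that of Tnc because it was lower with Chd1 hairpin construct 96528 than with 96526 in all 3 clones. Each is given 5′ to 3′ on the gene's strand, with matches to the searched patterns in capitals.
Spp1, plus strand, chr5:104434861-104435160: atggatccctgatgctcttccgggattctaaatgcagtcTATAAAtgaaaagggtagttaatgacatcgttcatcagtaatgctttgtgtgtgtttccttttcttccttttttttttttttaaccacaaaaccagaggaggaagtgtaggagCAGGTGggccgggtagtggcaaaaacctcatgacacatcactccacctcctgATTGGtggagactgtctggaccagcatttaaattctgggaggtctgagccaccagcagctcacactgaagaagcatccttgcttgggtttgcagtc
Tgfbi, plus strand, chr13:56609336-56609635: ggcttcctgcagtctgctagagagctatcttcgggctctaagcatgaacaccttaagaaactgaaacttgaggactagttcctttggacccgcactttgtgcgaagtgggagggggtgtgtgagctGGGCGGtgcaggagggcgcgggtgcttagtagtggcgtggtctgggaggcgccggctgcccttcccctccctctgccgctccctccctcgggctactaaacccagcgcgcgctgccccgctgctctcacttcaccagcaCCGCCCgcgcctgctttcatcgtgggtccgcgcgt
Sparc, minus strand, chr11:55420031-55420330: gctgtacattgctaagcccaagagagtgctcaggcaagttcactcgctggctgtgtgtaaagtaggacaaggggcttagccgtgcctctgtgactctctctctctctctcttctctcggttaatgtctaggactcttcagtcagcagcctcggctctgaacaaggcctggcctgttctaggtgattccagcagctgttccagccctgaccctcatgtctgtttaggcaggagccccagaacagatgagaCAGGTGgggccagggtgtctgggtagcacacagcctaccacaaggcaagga
Tnc, minus strand, chr4:64046966-64047265: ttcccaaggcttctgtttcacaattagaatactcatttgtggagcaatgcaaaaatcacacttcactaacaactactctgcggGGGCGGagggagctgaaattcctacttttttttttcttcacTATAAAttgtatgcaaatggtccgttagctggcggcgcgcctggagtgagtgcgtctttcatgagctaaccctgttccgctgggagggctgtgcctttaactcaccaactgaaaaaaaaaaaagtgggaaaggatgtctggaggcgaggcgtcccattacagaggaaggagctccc

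Both strands were searched for 7 short patterns, each given with the share of all 32851 promoter windows that hold it. The core promoter patterns were the TATA box (TATAAA, in 13.6% of windows), the CCAAT box (37.4%) and the GC box (GGGCGG, in 35.7%). The E-box bound by ZEB factors (CACCTG) was in 20.2% of windows. For signal-responsive factors the patterns were that of AP-1 (TGANTCA, in 7.81%), that of NF-kB (GGANTTTCC, in 1.25%) and that of TEAD (GGAATG, in 14.7%). The Spp1 window held TATAAA at -211, the reverse of CACCTG at -98 and the reverse of CCAAT at -46 from the start site. The Tgfbi window held GGGCGG at -124 and its reverse at 15. The Sparc window, which lies inside the annotated gene, held the reverse of CACCTG at -1, and the Tnc window held GGGCGG at -167 and TATAAA at -126. None of these matches overlapped another. Spp1 and Tnc each had a further window, from another RefSeq start. From that start the same Tnc matches lay at -246 and -205, and the further Spp1 window held no match. The letters of the AP-1, NF-kB and TEAD patterns were in no window of the 6 genes, which says nothing of binding by those factors.

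Per kilobase of annotated exon, the 8 genes spanned several orders of magnitude, and their order differed between libraries with and without a Map3k7 hairpin. Fn1 ranked first in every group, at 1647 ± 76.1 CPM per kb in shDouble, 1681 ± 58.3 in shMap3k7, 1373 ± 203 in shChd1 and 1128 ± 338 in shControl (SD, n = 4, 2, 2 and 3). Thbs1 ranked 2nd in shDouble and shMap3k7, at 533 ± 45.6 CPM per kb in shDouble and 514 ± 43.2 in shMap3k7. Spp1 ranked 5th in both, at 19.5 ± 8.66 CPM per kb in shDouble and 13.4 ± 8.90 in shMap3k7. Spp1 ranked 2nd in the other groups, at 326 ± 42.2 CPM per kb in shChd1 and 243 ± 59.3 in shControl. Thbs1 ranked 4th in shChd1 at 99.9 ± 8.25 CPM per kb and 3rd in shControl at 183 ± 74.1, where its range overlapped that of Spp1 and of Sparc. The ranges of Sparc and Tnc overlapped in shDouble and in shMap3k7, so their order there is not set. Postn, Tgfbi and Thbs2 stayed below 3 CPM per kb in every library.

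**Figure D1:**
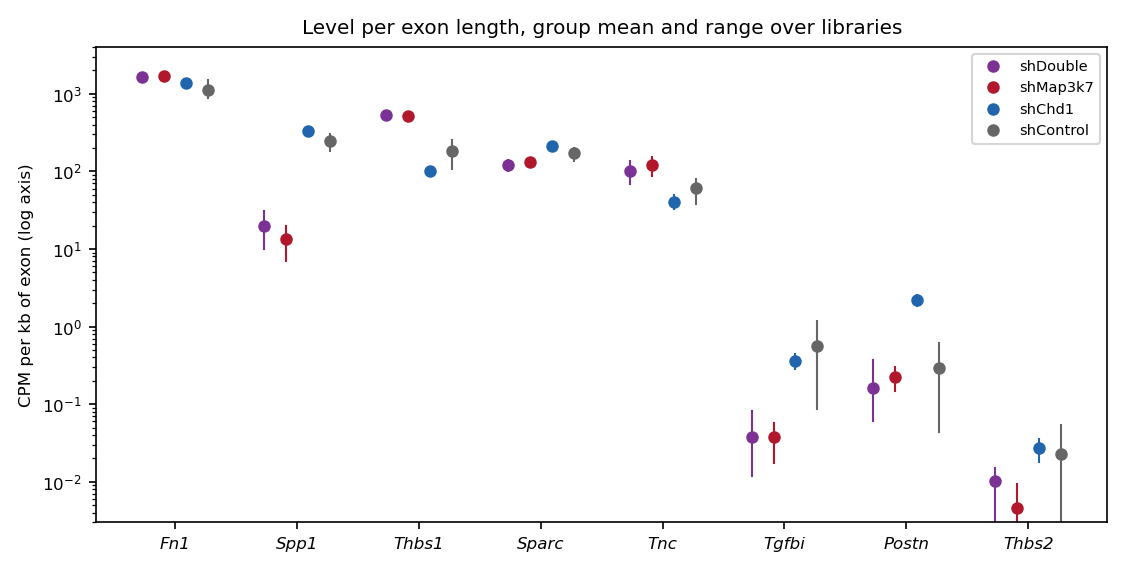
Level of each gene in CPM per kb of exon (log axis), with the group mean as a point and the range over the group's libraries as a line, for shDouble, shMap3k7, shChd1 and shControl. Spp1 is 5th in shDouble and shMap3k7 and 2nd in shChd1 and shControl, and Thbs1 is 2nd in shDouble and shMap3k7. Lines that run off the lower edge include a library at 0.

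Against shControl, cells with both hairpins had more Fn1 and Thbs1 mRNA and less Spp1, Tgfbi and Sparc. Of the 7 genes tested, 2 rose and 3 fell, where 10.2% of all genes tested rose and 13.6% fell. Their median log2 fold change was -0.49, against 0.00 over all genes. The genes were chosen with earlier results of these data known, so these counts are a description. The shDouble libraries share clones, and the fit took each library as separate. With the line as a random replicate block, only the Spp1 and Thbs1 calls of shDouble were kept. Cells with the Map3k7 hairpin alone had more Thbs1 and less Spp1, that is, 1 gene rose and 1 fell, where 4.86% of all genes rose and 7.08% fell. The median was -0.36, against -0.01 over all genes. These comparisons use the same 3 shControl libraries.

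Fn1 (ENSMUSG00000026193.15, chromosome 1, 71585520 to 71653200 on GRCm38, minus strand) measured 18271, 18720, 20103 and 19884 CPM in shDouble. It measured 19157 and 20121 CPM in shMap3k7, 17720 and 14362 CPM in shChd1, and 10150, 17648 and 11739 CPM in shControl. All 6 Map3k7-hairpin libraries were above all 5 others, though the shControl library of clone 4 lay just below the lowest of them. Fn1 took 1.06% to 1.97% of a library's counts. It rose in shDouble by 0.55 ± 0.16 on the log2 scale (SE, edgeR adjusted p = 0.0329). The log2 fold change in shMap3k7 was of like size, 0.58 ± 0.19, with adjusted p = 0.0724. The call in shDouble was lost in 10 of 19 alternative analyses, among them the line as a random replicate block (adjusted p = 0.0657) and leaving out any 1 of the 4 shDouble libraries or of shControl replicates 1 and 3 (0.0517 to 0.0958). Without shControl replicate 2, which is clone 4, the log2 fold changes were 0.81 in shDouble (adjusted p = 9.32e-04) and 0.84 in shMap3k7 (adjusted p = 0.00274).

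Thbs1 (ENSMUSG00000040152.8, chromosome 2, 118111876 to 118127133, plus strand) encodes thrombospondin-1, a trimeric protein that activates latent TGF-beta and restrains blood vessel growth through CD36 and CD47. It measured 3178, 3539, 2884 and 3341 CPM in shDouble, 3304 and 2933 CPM in shMap3k7, 642 and 571 CPM in shChd1, and 1128, 655 and 1555 CPM in shControl. The lowest Map3k7-hairpin library held more than the highest of the others, and the libraries of control clone 4, with or without a Chd1 hairpin, were the 3 lowest. Thbs1 rose by 1.54 ± 0.23 on the log2 scale in shDouble (edgeR adjusted p = 0.00157) and by 1.49 ± 0.26 in shMap3k7 (adjusted p = 0.00792). In shDouble the call held in all 19 alternatives, with adjusted p up to 0.0439. In shMap3k7 it was lost in 3 of 19, including the analysis without shMap3k7 replicate 1 (adjusted p = 0.0694). Thbs2 (ENSMUSG00000023885.9, chromosome 17, 14665500 to 14694235, minus strand), the related thrombospondin-2, had 2, 2, 2 and 0 counts in shDouble, 1 and 0 in shMap3k7, 2 and 4 in shChd1, and 6, 2 and 0 in shControl. Pooled, that was 0.0746 CPM in shDouble (95% exact Poisson interval 0.0274 to 0.162), 0.0343 in shMap3k7 (8.68e-04 to 0.191), 0.188 in shChd1 (0.0691 to 0.410) and 0.150 in shControl (0.0646 to 0.295). These overlapping intervals cover counting error only, and no difference was detectable at this depth.

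Tnc (ENSMUSG00000028364.15, chromosome 4, 63959785 to 64047015, minus strand) encodes tenascin-C, a hexameric protein that weakens adhesion to fibronectin. It measured 1056, 758, 827 and 533 CPM in shDouble, 1185 and 667 CPM in shMap3k7, 382 and 252 CPM in shChd1, and 620, 515 and 291 CPM in shControl. The 2 shMap3k7 libraries were above all shControl libraries, but the shDouble range reached into that of shControl. The log2 fold changes against shControl were 0.74 ± 0.31 in shDouble (edgeR adjusted p = 0.11) and 0.96 ± 0.36 in shMap3k7 (adjusted p = 0.106), neither past the threshold. DESeq2 called Tnc in both (adjusted p = 0.0491 in shDouble and 0.0399 in shMap3k7).

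Sparc (ENSMUSG00000018593.13, chromosome 11, 55394500 to 55423183, minus strand) encodes osteonectin, which binds collagen and calcium and counters cell spreading. It measured 532, 475, 444 and 386 CPM in shDouble, 503 and 501 CPM in shMap3k7, 811 and 790 CPM in shChd1, and 656, 765 and 514 CPM in shControl. The highest shDouble library lay just above the shControl library of clone 5. Sparc fell by 0.49 on the log2 scale in shDouble (SE 0.14, edgeR adjusted p = 0.0259). The log2 fold change in shMap3k7, -0.36 ± 0.17, had adjusted p = 0.177, and without shControl replicate 3 it was -0.50 (adjusted p = 0.0445). The shDouble call was lost in 7 of 19 alternatives: without shControl replicate 1 (adjusted p = 0.0606) or 2 (0.105), without shDouble replicate 3 (0.0607) or 4 (0.0651), with the line as a random replicate block (0.0899), with counts summed per line (0.162) and with only the groups compared in the fit (0.0561).

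Spp1 (ENSMUSG00000029304.14, chromosome 5, 104435118 to 104441050, plus strand) encodes osteopontin, a phosphorylated glycoprotein that is bound by alpha v integrins and CD44. It showed the largest difference between libraries with and without a Map3k7 hairpin among the 5 genes with a group mean of at least 100 CPM. Spp1 measured 16.4, 26.9, 35.3 and 50.2 CPM in shDouble, 11.7 and 32.5 CPM in shMap3k7, 488 and 587 CPM in shChd1, and 298, 492 and 412 CPM in shControl. The Map3k7-hairpin libraries lay far below all 5 others, and the means were 8.03% of shControl in shDouble and 5.51% in shMap3k7. Spp1 fell by 3.64 on the log2 scale in shDouble (SE 0.40, edgeR adjusted p = 3.23e-04) and fell by 4.19 in shMap3k7 (SE 0.55, adjusted p = 0.00223). Both calls held in all 19 alternatives, with adjusted p up to 0.0214 in shDouble and 0.0289 in shMap3k7. An annotated transcript of the same strand, Gm42793, overlaps Spp1 and had 117 counts in all 11 libraries.

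Postn and Tgfbi encode periostin and TGF-beta-induced protein, secreted proteins built of repeated fasciclin domains that bind integrins and collagen, and both were scarce here. Tgfbi (ENSMUSG00000035493.10, chromosome 13, 56609523 to 56639562, plus strand) measured 0.0442, 0.0918, 0.312 and 0.119 CPM in shDouble, 0.0650 and 0.217 CPM in shMap3k7, 1.68 and 1.07 CPM in shChd1, and 4.49, 1.56 and 0.330 CPM in shControl. That amounted to 11 counts over shDouble, 4 over shMap3k7, 44 over shChd1 and 108 over shControl. The highest value was that of the unnumbered control line, in which the endothelial genes were also present. Tgfbi fell by 3.86 on the log2 scale in shDouble (SE 0.84, edgeR adjusted p = 0.00919). Without shControl replicate 1 it fell by 2.71 (adjusted p = 0.0321), and with the line as a random replicate block adjusted p was 0.147. In shMap3k7 the log2 fold change was -3.87 ± 1.16 (adjusted p = 0.0544), and without shControl replicate 3 it was -4.38 (adjusted p = 0.0127). Postn (ENSMUSG00000027750.16, chromosome 3, 54361109 to 54391037, plus strand) measured 1.24, 3.26, 0.573 and 0.535 CPM in shDouble, 1.30 and 2.61 CPM in shMap3k7, 16.1 and 22.4 CPM in shChd1, and 2.06, 5.29 and 0.385 CPM in shControl. The shDouble and shMap3k7 values lay within the shControl range. Its log2 fold changes were -0.86 ± 0.77 in shDouble (adjusted p = 0.447) and -0.41 ± 0.94 in shMap3k7 (adjusted p = 0.811).

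**Figure D2:**
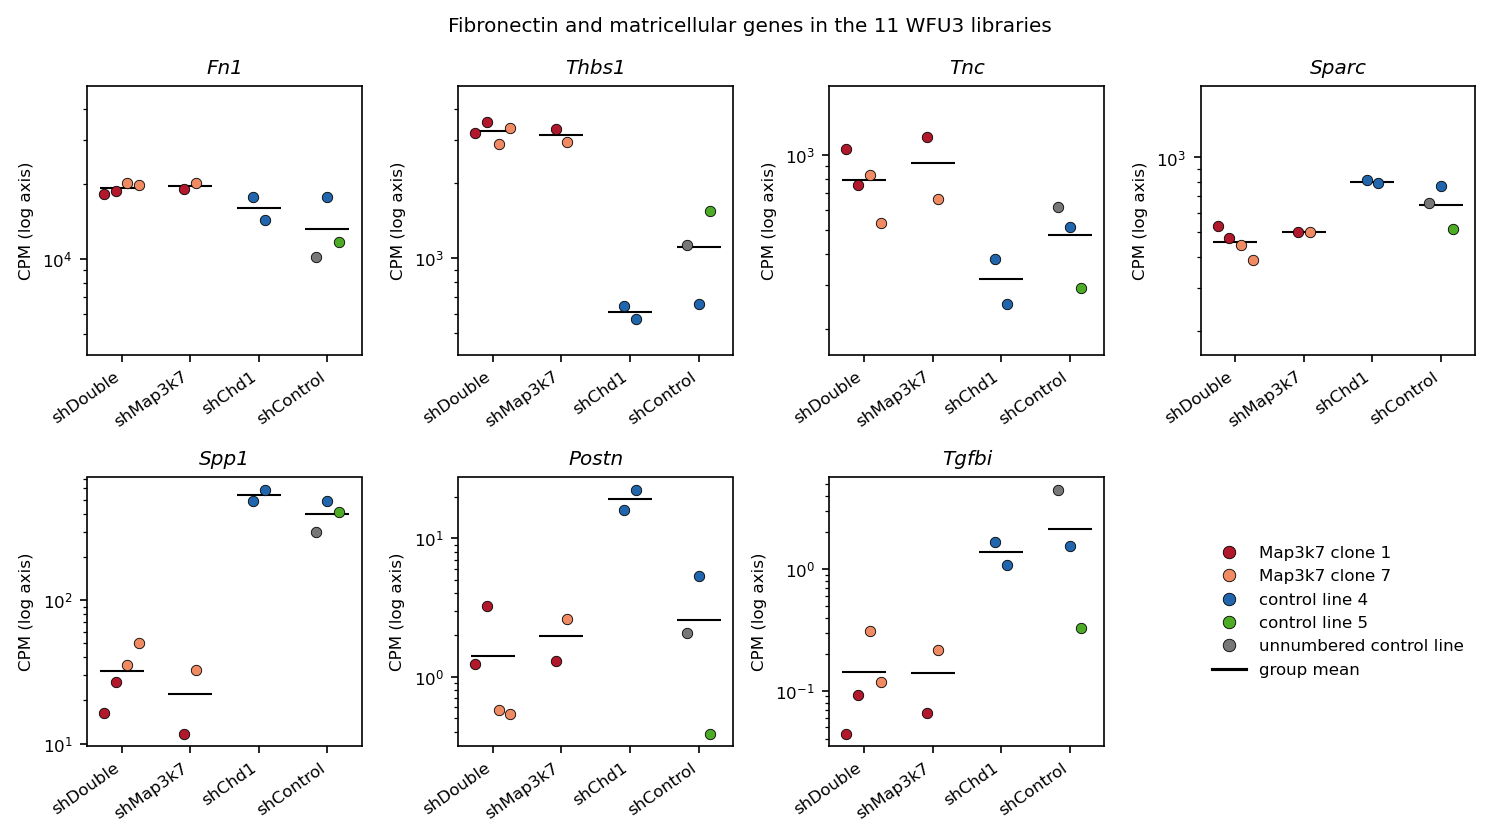
CPM (log axis) of the 7 tested genes in each library, grouped as shDouble, shMap3k7, shChd1 and shControl and coloured by line, with the group mean as a bar. Thbs1 and Fn1 are higher and Spp1 and Tgfbi lower in all 6 libraries with a Map3k7 hairpin than in the 5 without, and Postn is highest in the 2 shChd1 libraries. Between the nearest libraries with and without the hairpin the gap is narrow for Fn1 (18271 against 17720 CPM) and for Tgfbi (0.312 against 0.330 CPM, both of few counts).

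**Figure D3:**
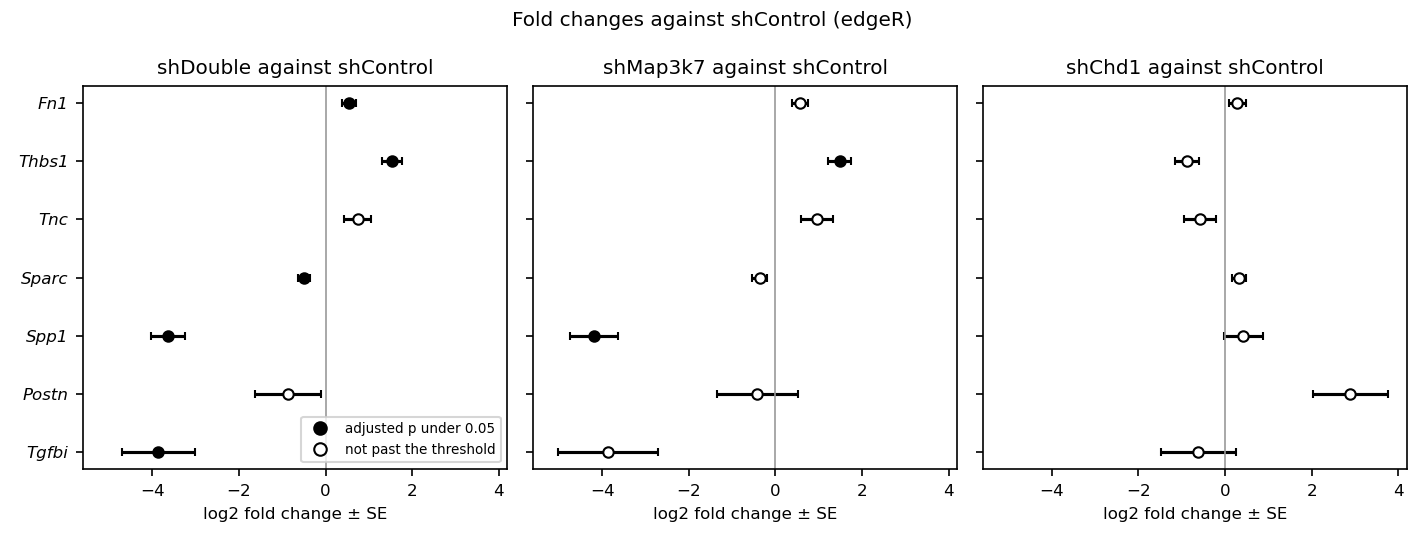
Log2 fold change ± SE of the 7 tested genes in shDouble, shMap3k7 and shChd1, each against shControl, with filled points for an edgeR adjusted p under 0.05. There are 5 filled points in shDouble, 2 in shMap3k7 and 0 in shChd1.

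With the Chd1 hairpin alone, edgeR called 0 of the 7 genes, where 0.662% of all genes tested rose and 2.24% fell. Postn and Thbs1 were the 2 with an unadjusted p under 0.05, and DESeq2 called both. The mean of Postn was 746% of that of shControl, with a log2 fold change of 2.89 ± 0.87 (edgeR adjusted p = 0.0845), and both shChd1 libraries were above all 3 shControl libraries. The log2 fold change of Thbs1 was -0.87 ± 0.27 (adjusted p = 0.0915), and both shChd1 libraries were below all shControl libraries. The other values were 0.42 ± 0.44 for Spp1 (adjusted p = 0.583), 0.31 ± 0.16 for Sparc (0.261), 0.28 ± 0.19 for Fn1 (0.37), -0.58 ± 0.37 for Tnc (0.348) and -0.61 ± 0.86 for Tgfbi (0.691). The median was 0.28, against -0.01 over all genes.

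Both shChd1 libraries come from control clone 4, so the library of clone 4 without a Chd1 hairpin is the nearest control. Set against that library, Thbs1 stood at 98.0% with construct 96526 and at 87.2% with construct 96528. Postn stood at 303% and 424% of it, Spp1 at 99.2% and 119%, Sparc at 106% and 103%, and Fn1 at 100.4% and 81.4%. Tnc stood at 74.2% and 48.9% of it. In the fit with the line as a fixed replicate block the Thbs1 log2 fold change was -0.11 (adjusted p = 0.671), against -0.87 without the block. That of Tnc was -0.70 (adjusted p = 0.289), that of Postn was 1.86 (adjusted p = 0.197), and that of Fn1 turned to -0.14 (adjusted p = 0.56). Without the clone 4 library in shControl, on the other hand, Fn1 (0.55, adjusted p = 0.00831), Postn (3.99, 0.0165) and Thbs1 (-1.14, 0.00162) all passed. The fibroblast marker sum of the clone 4 libraries with a Chd1 hairpin was also above that of every shControl library. Most of it was Col3a1, at 87.2 to 91.0 CPM against 1.21 to 34.0 CPM in shControl. Twist2 was also above shControl, Pdgfra, Pdgfrb and Dcn overlapped it, and Fap, Lum and Thy1 were at or near 0. The part of this sum in the Postn values was not tested.

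Adding a Chd1 hairpin to the Map3k7 clones gave no call. In shDouble against shMap3k7, edgeR called 0 of the 7 genes and 0 of all genes tested (0% in either direction), and DESeq2 and limma also called 0. At an unadjusted p under 0.05 there were 0 of the 7 and 115 of all genes. The log2 fold changes ran from -0.45 ± 0.89 for Postn to 0.54 ± 0.46 for Spp1, and that of Thbs1 was 0.05 ± 0.25. A missed threshold with 4 libraries against 2 does not show that the levels are alike. For the interaction, that is, the difference between the Chd1 effects with and without the Map3k7 hairpin, edgeR called 0 of the 7 and 0 of all genes (0% in either direction). At an unadjusted p under 0.05 there were 2 of the 7, Postn and Thbs1, and 1998 of all genes, and DESeq2 called 0 of the 7 and 395 of all genes. The interaction log2 values were -3.34 ± 1.23 for Postn (edgeR adjusted p = 0.29) and 0.93 ± 0.37 for Thbs1 (adjusted p = 0.315). With the line as a fixed replicate block edgeR called 11 of all genes and 0 of the 7. Without shControl replicate 2 the interaction passed for Fn1 (-0.58, adjusted p = 0.0406) and Thbs1 (1.20, adjusted p = 0.0107).

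Set against shChd1, shDouble differed in 6 of the 7 genes: 2 rose and 4 fell, where 22.6% of all genes rose and 22.2% fell. The median was -0.80, against 0.01 over all genes. Thbs1 rose by 2.41 ± 0.29 on the log2 scale (edgeR adjusted p = 1.96e-04) and Tnc by 1.32 ± 0.37 (adjusted p = 0.0142). The genes that fell had log2 fold changes of -4.07 ± 0.43 for Spp1 (adjusted p = 1.11e-04), -3.75 ± 0.81 for Postn (0.00399), -3.25 ± 0.92 for Tgfbi (0.0153) and -0.80 ± 0.15 for Sparc (0.00199). Fn1, at 0.26 ± 0.18, had adjusted p = 0.265, and without shControl replicate 2 it passed with the same log2 fold change (adjusted p = 0.0455). With the line as a random replicate block Tgfbi was lost (adjusted p = 0.145), as it was without shChd1 replicate 1 (0.0908). Tnc was lost without shChd1 replicate 2 (adjusted p = 0.138). The shChd1 libraries are of 1 clone, whose levels without a Chd1 hairpin were also low in Thbs1 and high in Sparc.

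Between the 2 Map3k7 clones only Spp1 was called. In a fit with a mean per line, clone 7 was compared with clone 1 over 3 libraries each, and 1 of the 7 genes rose and 0 fell, where 12.2% of all genes rose and 15.4% fell. A count of 1 in 7 cannot be set apart from those shares. The 3 libraries of a clone differ in their Chd1 or control hairpin, and the test measures spread within lines only, so it describes these 2 clones. The clones also differ in passage, 49 in clone 1 and 47 or 48 in clone 7. Spp1 measured 32.5, 35.3 and 50.2 CPM in clone 7 and 11.7, 16.4 and 26.9 CPM in clone 1, without overlap. It rose by 1.12 ± 0.20 on the log2 scale (edgeR adjusted p = 0.00412). The call held in all 11 alternatives, and every library of both clones was still far below the 298 CPM of the lowest library without a Map3k7 hairpin. Tnc, at -0.55 ± 0.20 (adjusted p = 0.0687), Tgfbi, at 1.62 ± 0.72 (0.126), and Sparc, at -0.19 ± 0.08 (0.112), did not pass. Tnc passed without shDouble replicate 2 (adjusted p = 0.0373) or 3 (0.022), and Postn, which did not pass with all libraries, without shMap3k7 replicate 1 (-2.01, adjusted p = 0.0325) or 2 (0.0318). Fn1 (0.10 ± 0.07) and Thbs1 (-0.13 ± 0.07) differed little between these clones, with adjusted p = 0.323 and 0.219.

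Within each clone, the libraries with constructs 96528 and 96526 could be set side by side, as a description with no test. The ratio of construct 96528 to construct 96526 for Tnc was 0.718 in clone 1, 0.645 in clone 7 and 0.658 in control clone 4. For Spp1 it was 1.65 in clone 1, 1.42 in clone 7 and 1.20 in control clone 4, and for Sparc it was 0.893, 0.870 and 0.975. Tnc and Sparc were lower and Spp1 higher with construct 96528 in each of the 3 clones. Fn1 (1.02, 0.989 and 0.810), Thbs1 (1.11, 1.16 and 0.890) and Postn (2.63, 0.934 and 1.40) were not all on one side. The clone 4 libraries also differ in passage, 50 with construct 96528 and 52 with 96526. Chd1 itself stood at 73.5%, 79.7% and 77.1% of the same clone's level with construct 96528 and at 89.7%, 81.5% and 74.6% with construct 96526, so the order of these 2 constructs in Chd1 was not the same in every clone.

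**Figure D4:**
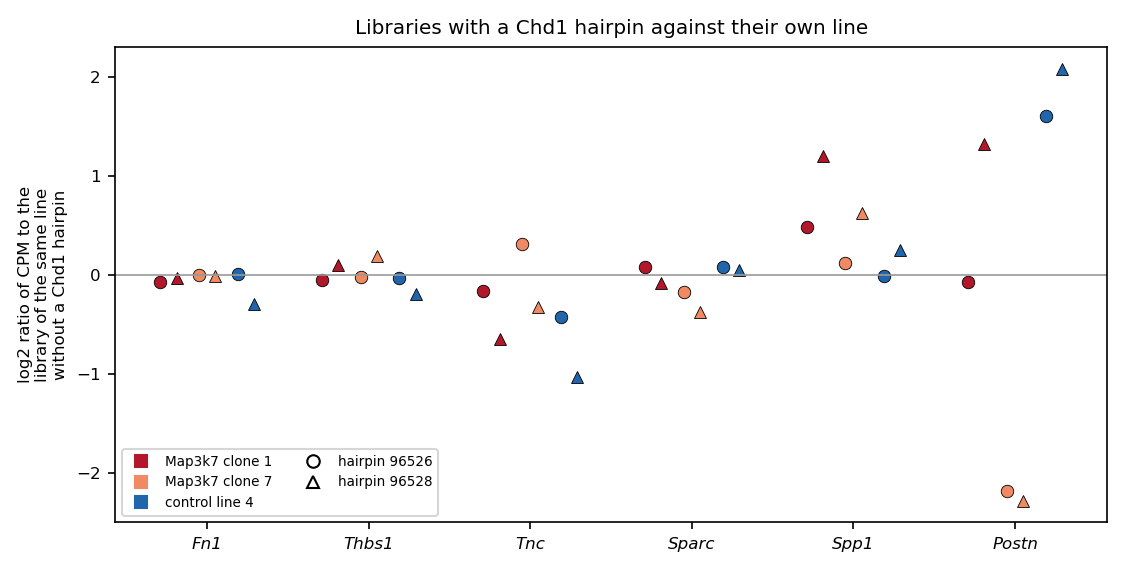
Log2 ratio of CPM in each library with a Chd1 hairpin to the library of the same clone without one, for 6 genes, coloured by clone and shaped by construct. Tnc lies lower with construct 96528 than with 96526 in all 3 clones, and Postn is above 0 in both libraries of control clone 4 and below it in both of clone 7.

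The list of receptor genes for these proteins also held the collagen receptor Ddr2 and the cadherin Cdh13. Genes of this list were called in both directions. Of its 20 genes, 19 were tested. In shDouble against shControl 3 rose and 8 fell, where 10.2% of all genes rose and 13.6% fell, with a median of -0.58 on the log2 scale (the same with Ddr2, at 0 counts in shDouble, set to its bound). In shMap3k7 3 rose and 2 fell, where 4.86% of all genes rose and 7.08% fell, with a median of -0.47. In the random replicate block by line 2 rose and 3 fell in shDouble, against 2 and 1 in shMap3k7. The shares of all genes are from the fit without that block. This list and those below were chosen with earlier results of these data known, so their counts beside such shares are a description only. Lrp1, the endocytic receptor that clears thrombospondin-1, measured 13.8 to 22.8 CPM in shDouble, 16.3 and 23.1 CPM in shMap3k7, 771 and 936 CPM in shChd1 and 455 to 1072 CPM in shControl. It fell by 5.45 on the log2 scale in shDouble (SE 0.31, edgeR adjusted p = 8.94e-06) and fell by 5.31 in shMap3k7 (SE 0.41, adjusted p = 1.8e-04). Cd44, a receptor of osteopontin and hyaluronan, measured 1321 to 1556 CPM in shDouble, 1510 and 1159 CPM in shMap3k7, 429 and 360 CPM in shChd1 and 507 to 750 CPM in shControl. It rose by 1.12 ± 0.15 in shDouble (adjusted p = 8.01e-04) and by 1.04 ± 0.17 in shMap3k7 (adjusted p = 0.00544, and 0.0658 without shMap3k7 replicate 1). Itgb1, the beta subunit of most fibronectin receptors, rose by 0.53 ± 0.08 in shDouble (adjusted p = 0.00126) and by 0.60 ± 0.09 in shMap3k7 (adjusted p = 0.0036). Itga8, an alpha subunit that pairs with it, measured 2.20 to 4.17 CPM in shDouble, 4.16 and 5.22 CPM in shMap3k7, 2.92 and 4.68 CPM in shChd1 and 0.385 to 1.56 CPM in shControl, so that the shChd1 libraries lay among those with a Map3k7 hairpin. It rose by 1.68 ± 0.43 in shDouble (adjusted p = 0.0185, and 0.0807 with the random block). In shMap3k7 it rose by 2.09 ± 0.48 (adjusted p = 0.0218), with 0.0664 in the random block and 0.0916 and 0.113 without shMap3k7 replicate 1 or 2. Cdh13, a cadherin held in the membrane by a lipid anchor, fell by 1.00 in shDouble (SE 0.21, adjusted p = 0.00823). Ddr2, a collagen receptor kinase, had 0 counts in shDouble and 0.110 to 1.69 CPM in shControl (adjusted p = 0.011, and 0.0737 with the random block). Itgb5, a partner of alpha v, fell by 1.14 in shDouble (SE 0.21, adjusted p = 0.00421), and its log2 fold change in shMap3k7 was -0.85 ± 0.26 (adjusted p = 0.0578, and 0.0337 without shDouble replicate 4 or 0.0244 without shControl replicate 1). Itga5 and Cd47, chosen after their values were seen because they are the alpha subunit of the main fibronectin receptor and a thrombospondin-1 receptor, each fell by 0.58 in shDouble (adjusted p = 0.0285 and 0.0161). With the random block these were 0.0618 for Itga5 and 0.0925 for Cd47. Without shControl replicate 2 they were 0.114 for Itga5 and 0.064 for Cd47, and Itga5 was also lost without shControl replicate 1 (0.0564) and without shDouble replicate 3 (0.0682) or 4 (0.0709).

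In the list of genes for fibronectin assembly and matrix cross-linking, also chosen with earlier results known, most were called lower in shDouble. All 15 of the list were tested: 1 rose and 10 fell in shDouble (median -1.92), where 10.2% of all genes rose and 13.6% fell, and 5 fell in shMap3k7 (median -1.73), where 7.08% fell. Under the random replicate block by line 6 fell in shDouble and 3 in shMap3k7, and the shares of all genes are from the fit without it. Col5a1, a fibril collagen chain, measured 0.265 to 2.08 CPM in shDouble, 0.130 and 0.942 CPM in shMap3k7, 147 and 105 CPM in shChd1 and 81.4 to 150 CPM in shControl. It fell by 7.31 on the log2 scale in shDouble (SE 0.55, edgeR adjusted p = 3.78e-05). Lox, the lysyl oxidase that cross-links collagen and elastin, measured 0.891 to 13.6 CPM in shDouble, 2.61 and 8.58 CPM in shMap3k7, 395 and 304 CPM in shChd1 and 168 to 381 CPM in shControl. It fell by 5.24 in shDouble (SE 0.74, adjusted p = 0.00116) and fell by 5.55 in shMap3k7 (SE 1.03, adjusted p = 0.01, and 0.0659 and 0.0766 without shMap3k7 replicate 1 or 2). Others that fell in shDouble had log2 fold changes of -4.98 for Fbn1 (fibrillin-1, adjusted p = 0.00977), -2.75 for Tgm2 (a transglutaminase, 0.00504), -4.15 for Adamts2 (a procollagen peptidase, 7.62e-04) and -8.65 for Fbln1 (fibulin-1, 0.00389). With the random block Fbln1 was lost (adjusted p = 0.562). The gene that rose was Bmp1, a procollagen peptidase named here because it was the only one, by 0.55 ± 0.14 (adjusted p = 0.02). It was lost with the random block (adjusted p = 0.0914) and without shControl replicate 2 (0.0766) or 3 (0.0524). The fibroblast marker sum moved with these genes, as given above.

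Thrombospondin-1 activates latent TGF-beta and Tgfbi is a TGF-beta target, and 14 genes of that pathway were tested. In shDouble 2 rose and 7 fell (median -0.85), where 10.2% of all genes rose and 13.6% fell. In shMap3k7 1 rose and 5 fell (median -0.93), where 4.86% of all genes rose and 7.08% fell. The random block by line left 1 higher and 5 lower in shDouble, and 1 higher and 4 lower in shMap3k7. Again the shares of all genes are from the fit without the block. Receptor genes fell. Tgfbr3 measured 0.597 to 0.929 CPM in shDouble and 16.5 to 29.0 CPM in shControl, and fell by 5.03 (SE 0.31, edgeR adjusted p = 1.33e-05). Tgfbr2 fell by 1.01 (SE 0.09, adjusted p = 1.28e-04) and Tgfbr1 fell by 1.00 (SE 0.17, adjusted p = 0.00279), and the ligand gene Tgfb1 fell by 1.47 (SE 0.23, adjusted p = 0.00172). Ltbp2, which encodes a matrix protein of the latent TGF-beta binding family, measured 87.2 to 129 CPM in shDouble, 110 and 151 CPM in shMap3k7, 1447 and 1579 CPM in shChd1 and 369 to 1148 CPM in shControl. It fell by 2.49 in shDouble (SE 0.35, adjusted p = 0.00121). Inhba, which encodes the activin A subunit, rose by 1.00 ± 0.17 in shDouble (adjusted p = 0.00278) and by 1.02 ± 0.19 in shMap3k7 (adjusted p = 0.0109), and fell by 1.44 in shChd1 (SE 0.21, adjusted p = 0.0248). The shMap3k7 call of Inhba was lost without shMap3k7 replicate 1 (0.0686) or 2 (0.0616). Its shChd1 call was lost without shChd1 replicate 1 (0.0616) or 2 (0.394) and without shControl replicate 1 (0.0618) or 3 (0.0604). Smad7, named here because it was the other of 2 that rose in shDouble, encodes an inhibitor of the pathway and rose by 0.43 ± 0.10 (adjusted p = 0.0144, and 0.0677 with the random block).

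Few relatives of the matricellular genes were tested. Of the 6 CCN genes 5 were, with 1 gene called higher and 1 lower in shDouble (over all genes, 10.2% and 13.6%) and likewise in shMap3k7 (4.86% and 7.08%). So small a list cannot be set apart from those shares. Ctgf (Ccn2), a heparin-binding matricellular protein, measured 181 to 270 CPM in shDouble, 247 and 275 CPM in shMap3k7, 45.7 and 27.0 CPM in shChd1 and 45.1 to 133 CPM in shControl. It rose by 1.30 ± 0.32 in shDouble (edgeR adjusted p = 0.0151) and by 1.52 ± 0.36 in shMap3k7 (adjusted p = 0.0244, and 0.103 and 0.113 without shMap3k7 replicate 1 or 2). Wisp2 (Ccn5), which lacks the C-terminal domain of the other CCN proteins, fell by 4.18 in shDouble (SE 0.61, adjusted p = 0.00131) and fell by 3.42 in shMap3k7 (SE 0.78, adjusted p = 0.0208). With the line as a random replicate block Wisp2 had adjusted p = 0.0656 in shDouble and 0.145 in shMap3k7, and without shMap3k7 replicate 1 or 2 it had 0.145 and 0.0563 in shMap3k7. Of 7 relatives of Sparc 3 were tested. Fstl1 fell by 5.08 on the log2 scale in shDouble (adjusted p = 0.00193) and fell by 5.13 in shMap3k7 (adjusted p = 0.0167). With the random block these were 0.247 in shDouble and 0.388 in shMap3k7, and the shMap3k7 call was lost without shMap3k7 replicate 1 (0.131) or 2 (0.10). Its shControl values were 51.2, 2.39 and 44.9 CPM, and that of clone 4 was near the 0.677 to 1.37 CPM of shDouble. In shDouble Smoc1 fell by 3.73 (SE 0.90, adjusted p = 0.0145), which was lost with the random block (0.223) and without shControl replicate 2 (0.0569). Of 6 other thrombospondin and tenascin genes Thbs3 was tested, with a log2 fold change of -0.67 ± 0.41 in shDouble (adjusted p = 0.262), and 4 relatives of Spp1 (Ibsp, Dmp1, Dspp and Mepe) did not pass the filter on low counts.

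Over the 11 libraries, the genes most like a member in log2 CPM were sought among 9903 genes averaging 5 CPM or more. For Thbs1 these were Fdft1 (Pearson r = 0.996) and Ide (0.990), for Spp1 Cdc42se1 (0.991) and Gmcl1 (0.984), and for Sparc Katnal1 (0.987) and Ift172 (0.978). For Postn they were Palm2 (0.974) and Slc36a4 (0.967), and for Tnc Ptk2 (0.942) and Lmo1 (0.934). The libraries fall into those with and without a Map3k7 hairpin and share clones, so these values describe this set of libraries only.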

How the data were processed

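RNA from 11 WFU3 samples was enriched for mRNA with oligo(dT) and sequenced. The authors deposited a raw table of expected counts per gene and a table of log2 normalized values, 1 column per library. Bowtie2, RSEM 1.3.1, limma and the build GRCm38 are named in the submitters' processing notes. For the annotation and the strand setting, not given in the sources used here, nothing was assumed, and reads of antisense neighbours (Apol7d with 29.86 counts over all libraries at Fn1, 8030451A03Rik with 166 at Tnc) cannot be told apart from the gene's own.

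Expected counts were rounded and analysed in R 4.3.3 with edgeR 4.0.16: TMM scaling, filterByExpr (minimum count 10, minimum total 15), 4 group means fitted to the 11 libraries, and its quasi-likelihood test, with p-values adjusted by Benjamini and Hochberg's method over 14346 genes. CPM are TMM-scaled. Length per gene is the union of GENCODE M21 exons. The members and gene lists were chosen with earlier results of these data known. All 8 members were to be named, and of each other list up to 6 genes with the smallest p, taken in shDouble or shMap3k7 against shControl. Likeness used log2 CPM with a prior count of 2, and that of Fn1 is not reported here. Alternatives used limma 3.58.1 (on the deposited log2 table, and voom with the line as a random block) and DESeq2 1.42.0, other scalings, no filter, the groups compared only, counts summed per line, and each library left out. Where groups share clones, the line was a fixed block. The labels pair libraries by clone: the difference between clone 7 and clone 1 correlated with r = 0.571 across genes between shMap3k7 and shDouble, and the correlation within a line was 0.631. No pair of libraries of a group differed by as little as sampling noise. Reads carried no molecular identifiers, so intervals cover counting error only. The test was tried on simulated counts first.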

Additional observations from a re-analysis of the deposited data

Results flagged for a closer look

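Thbs2 in shDouble was picked out because 1 of the 4 libraries lay far from the others relative to their range. The value was 0 CPM in replicate 4, where each of the other 3 libraries had 2 counts (0.0884 to 0.104 CPM). For normally distributed values chance picks out about 1 in 20 groups in this way, a rate that need not hold for counts this low. A difference of 2 counts is within counting error.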

How the results depend on the processing

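Spp1 kept its direction and its call in all 19 alternatives in shDouble and in shMap3k7, each against shControl, and Thbs1 in all 19 in shDouble. Counts of called genes moved as follows, out of 7 tested. The share of all genes called under each alternative is not given beside them. In shMap3k7 against shControl the count was 2. It was 5 with DESeq2, 1 with only the groups compared, 1 with counts summed per line, and 1 to 4 with 1 library left out. In shChd1 the count was 0. It was 1 without the filter on low counts, 2 with DESeq2 and 0 to 3 with 1 library left out. In shDouble against shControl the count was 5. It was 6 with DESeq2, which added Tnc, and 4 with library totals only, which lost Fn1. It was 2 of the 6 tested with only the groups compared, where Tgfbi did not pass the filter. It was 2 with counts summed per line and 2 with the line as a random replicate block, Spp1 and Thbs1 in all 3 of these analyses, and 3 to 5 with 1 library left out. In shDouble against shChd1 the count was 6, then 2 with counts summed per line and 5 to 7 with 1 library left out. In shDouble against shMap3k7 it was 0 throughout. For the interaction it was 0, and 2 (Fn1 and Thbs1) without shControl replicate 2. Between the clones it was 1, 2 without the filter and 1 to 2 with 1 library left out. The cause was not tested.

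Values that changed sign, none of them called in the main analysis or after the change, were log2 fold changes. With limma on the deposited log2 table they were 0.16 for Postn in shMap3k7, 0.0055 for Tgfbi in shChd1, and -0.16 for Tgfbi in shDouble against shMap3k7 and in the interaction. With RLE size factors Tgfbi in shDouble against shMap3k7 was -0.00094. With the line as a replicate block Postn in shMap3k7 was 0.16, Fn1 in shChd1 -0.14 and Fn1 in the interaction 0.11. With 1 library left out at a time the ranges were, against shControl, -0.998 to 0.69 for Postn in shMap3k7, -1.71 to 0.24 for Postn in shDouble and -1.12 to 0.54 for Tgfbi in shChd1. For shDouble against shMap3k7 they were -0.064 to 0.0098 for Fn1, -1.28 to 0.13 for Postn, -0.57 to 0.25 for Tnc, -0.017 to 1.46 for Spp1, -0.70 to 1.02 for Tgfbi and -0.027 to 0.14 for Thbs1. For the interaction they were -0.45 to 1.02 for Spp1 and -0.53 to 1.63 for Tgfbi. Of the other genes named, cell type markers, Map3k7 and Chd1 aside, 27 were called in shDouble against shControl. Of these, 17 kept the call with the line as a random replicate block and 11 with counts summed per line. It was kept by 24 of 25 with only the groups compared and by 23 to 27 with 1 library left out. In shMap3k7 18 were called, of which 11 kept the call with the random block, 10 with counts summed per line, 6 with only the groups compared and 5 to 18 with 1 library left out. None of these changed sign in any alternative. For the 7 tested genes and these other genes, the replicate block by line changed no other call printed in the comparisons with shControl than those given beside the results. Of the epithelial markers, 2 were called lower in shDouble without the block and 1 with it. Depth limits Thbs2, Tgfbi and Postn, of which many libraries held few counts.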
